A study of Mus musculus with 4 samples.

Results

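The genes described here are 40 regulators of the cell cycle engine, namely the D-, E- and A-type cyclins and their relatives, the cyclin-dependent kinases (CDKs), the CDK inhibitors, the E2F transcription factors with their Dp partners, the Rb family, and 4 adaptors that couple CDKs or their substrates to protein degradation or phosphorylation. They were taken by symbol from a fixed list that leaves out Cdk1 and the B-type cyclins, and all 40 were found among the 23235 gene symbols of the data. RNA sequencing had been done on mouse haploid embryonic stem cells (haESCs), cells with a single set of chromosomes that tend to turn diploid in culture, to ask how the transcriptome changes under RDF. RDF is a cocktail of 3 small molecules, Repsox, an inhibitor of the TGF-β pathway, DMH1, an inhibitor of the BMP4 pathway, and Forskolin, an activator of adenylate cyclase.

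There were 2 samples of DMSO-treated cells, DMSO being the solvent, and 2 of RDF-treated cells. The study names HG165, an androgenetic line (its genome derives from sperm alone), as the source of the cells compared. Both groups therefore share this genotype, and the comparison rests on 1 line. The haESCs of the study were in general grown in a serum medium with LIF. The study left feeder cells out of most experiments, and RNA sequencing is not among the exceptions it lists. The doses, the length of treatment and any sorting for haploid cells are not given for the sequenced samples in the sources used here. Nothing in the labels says that the 2 samples of a group were separate cultures, so the p-values below measure the spread between these samples, which may be technical. Because these are bulk samples, fewer cells in a phase of the cycle, or fewer haploid cells, cannot be told apart from less RNA of a gene per cell.

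Cyclins switch on CDKs, and the pairs act in order: D-type cyclins with Cdk4 or Cdk6 early in G1, E-type cyclins with Cdk2 at entry into S phase, and A-type cyclins later. Their best known substrate is Rb, which with its relatives p107 (Rbl1) and p130 (Rbl2) holds E2F factors in check, and phosphorylated Rb lets the activator E2Fs turn on genes for DNA replication. In mouse embryonic stem cells this system is known to run with high CDK activity and a short G1 phase, and Rb is largely kept phosphorylated.

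The deposited values are FPKM, which scale the fragments of a gene to the length of its transcript and to the size of the library, so levels can be set side by side between genes. By the steps of whole fragments seen in low values, the libraries held approximately 9500000 and 11140000 fragments (DMSO replicates 1 and 2) and 12240000 and 11040000 (RDF replicates 1 and 2). All 8 embryonic stem cell markers examined were present, between 25.8 and 1285 FPKM. Their summed FPKM was 2367 and 2257 under DMSO and 1860 and 1780 under RDF. In the limma fit of the next paragraph 3 of them rose and 3 fell (75%, beside 21.6% of all genes tested). Their log2 fold changes ran from -0.80 (Utf1) to 0.85 (Zfp42). Markers of other cells moved between the groups as well. The summed FPKM of 13 fibroblast markers was 48.5 and 49.8 under DMSO and 40.6 and 38.6 under RDF. That of 8 primitive endoderm markers was 8.0 and 6.58 against 10.8 and 11.3, and that of 7 trophoblast markers 43.8 and 40.7 against 73.5 and 74.8. Most of the trophoblast sum came from Tfap2c alone, with 27.2 and 25.1 FPKM under DMSO and 48.3 and 50.7 FPKM under RDF. Cdx2 and Elf5 stayed under 1 FPKM in every sample. Of the 5 trophoblast markers tested in the fit described next, 3 rose (Gata3, Tfap2c and Hand1) and 0 fell. That is 60% called, beside 21.6% of all genes tested, with log2 fold changes of 1.08 for Gata3 and 0.70 for Hand1. In the fit described next, 4 of the 9 fibroblast markers tested fell, among them Col1a1 with a log2 fold change of -1.76, and 2 rose, among them Dcn with 1.65. No marker in these lists was at 0 in all samples. The part of other cells in the results below was not tested.

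Differences were tested with limma on log2(FPKM + 1), over the 11733 genes whose mean reached 1 FPKM, and a gene was called when its adjusted p was under 0.05. A log2 fold change below is RDF minus DMSO on that scale, which understates the change of genes at low levels, and ± marks its standard error. Of the 40 regulators, 37 could be tested. Of these, 10 were called (27%), beside 21.6% of all genes tested, so the share was close to the background. They divided evenly: 5 rose (E2f3, E2f1, Ccnd3, Ccng2 and Cdkn1b), which is 13.5% beside 13.3% of all genes, and 5 fell (Ccnd2, Ccne2, Cdk6, E2f4 and Ccnh), which is 13.5% beside 8.28%. The median log2 fold change of the 37 was 0.06, and that of all genes tested was 0.03.

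The changes were moderate, as were those of all genes, with a median absolute log2 fold change of 0.157 beside 0.164 for all genes tested. None of the 37 changed more than 2-fold on this scale, beside 1.41% of all genes tested, and their log2 fold changes ran from -0.45 (Ccnd2) to 0.67 (E2f3). Of the 3 genes too low to be tested, Ccna1 and Rbl2 had ratios of mean FPKM of 5.87 and 2.02, RDF over DMSO, and E2f2 of 1.26. In 29 of the 37 both RDF values lay on one side of both DMSO values (78.4%), beside 65.5% of all genes tested. The spread between replicates was small, with a median SD of 0.04 on the log2 scale, beside 0.08 for all genes tested.

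How many calls were made depended on which library was left out. Without DMSO replicate 1, 4 regulators rose and 2 fell. Leaving out DMSO replicate 2 gave 4 and 1, and leaving out RDF replicate 1 kept only the rise of E2f3. No call was kept without RDF replicate 2. Over all genes tested, fewer genes were likewise called in each of the 4 fits, both up and down. In these fits the lone sample of a group is assumed to vary like the other group. The direction of the 10 differences could not change in them, since for each gene both RDF values lay on one side of both DMSO values. The call of E2f3 was kept in 3 of the 4 fits, those of Ccnd3, Ccng2, E2f1 and E2f4 in 2 and that of Ccnd2 in 1, whereas Ccne2, Cdk6, Ccnh and Cdkn1b were called in none of them. When genes at any level above 0 were tested, 3 rose (E2f1, E2f3 and Ccng2) and 2 fell (E2f4 and Ccnh).

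**Figure D1:**
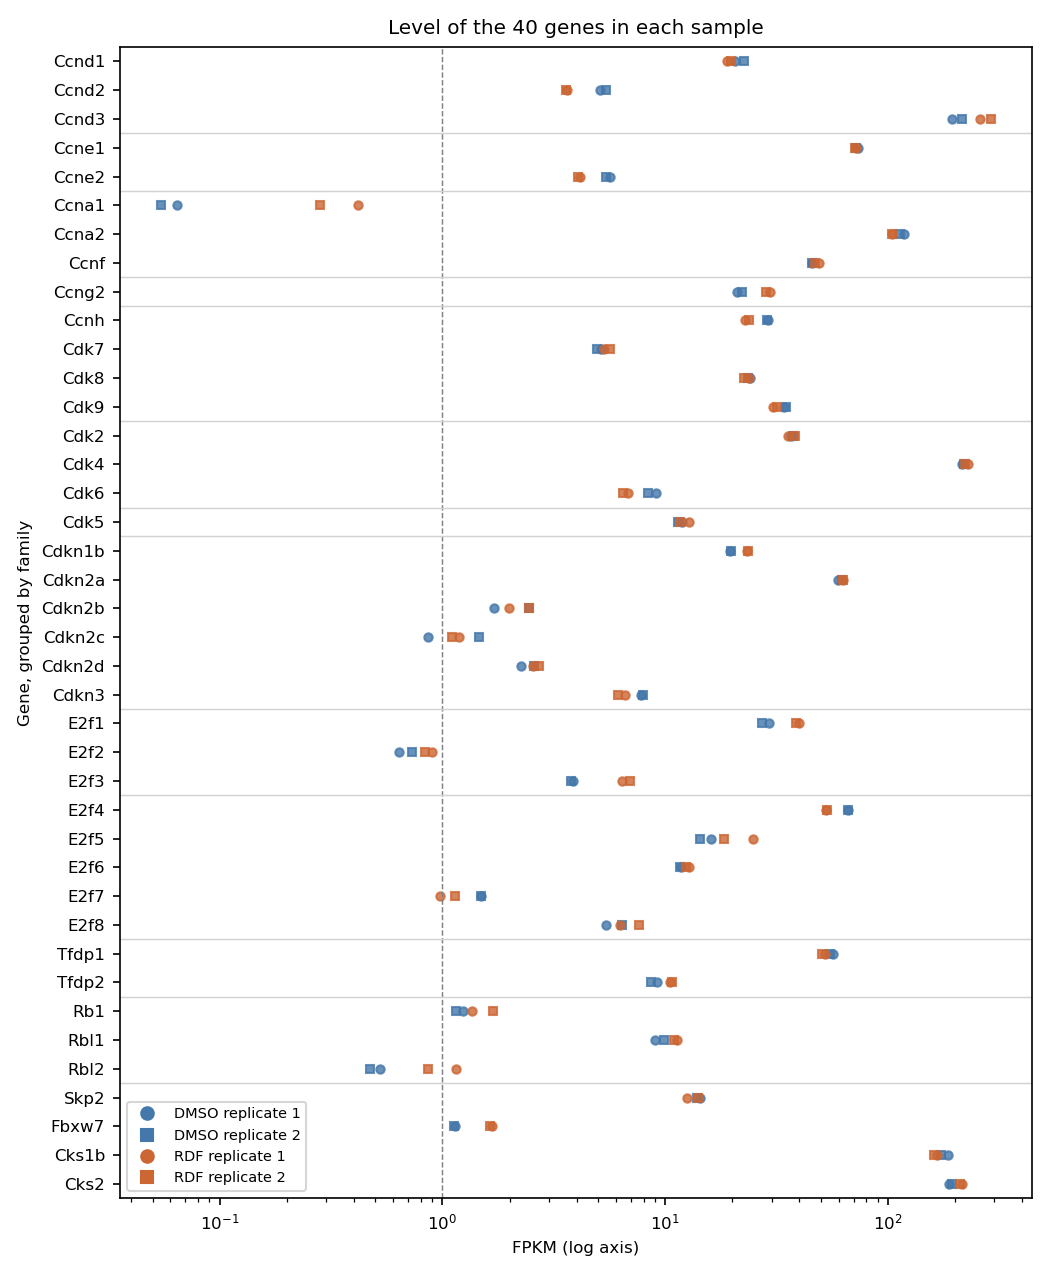
Level of each of the 40 genes in each sample, in FPKM on a log axis, with DMSO in blue and RDF in orange, circles for replicate 1 and squares for replicate 2, and grey lines between families; the dashed line marks 1 FPKM. Ccnd3, Cdk4, Cks1b, Cks2 and Ccna2 are the genes above 100 FPKM in every sample, and Ccna1 is the lowest in all 4.

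**Figure D2:**
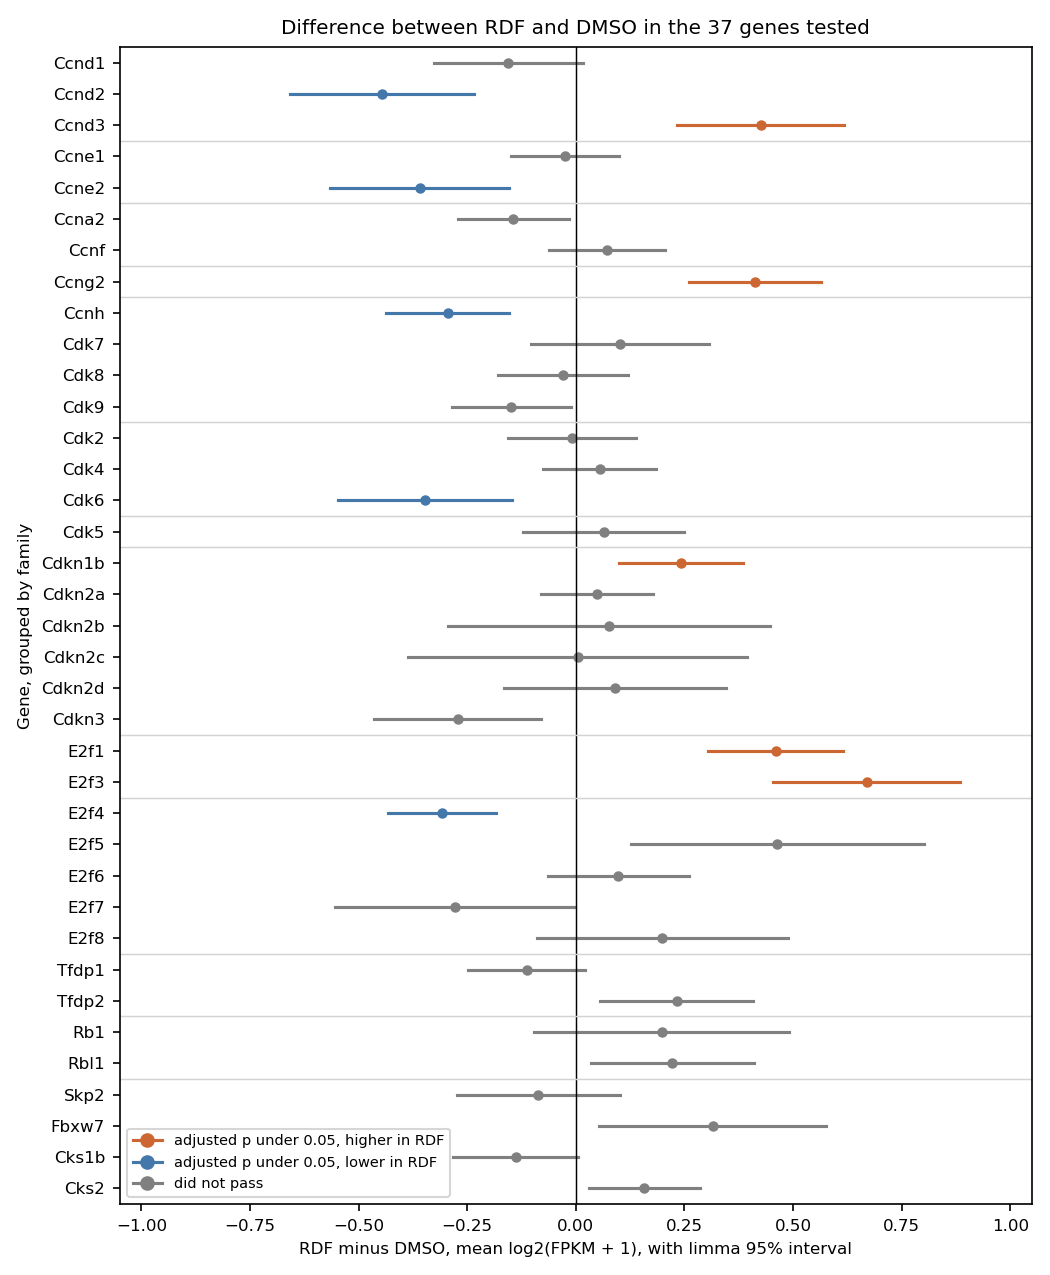
Difference between RDF and DMSO in mean log2(FPKM + 1) for the 37 genes tested, with limma's 95% confidence interval, in orange for the 5 genes that rose, in blue for the 5 that fell and in grey for the 27 that did not pass. E2f3 has the largest rise, 0.67, and Ccnd2 the largest fall, -0.45.

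Among the D-type cyclins, which carry growth and signalling cues into G1, the members moved in opposite directions. Ccnd3 (chr17:47642000-47736632, mouse build NCBIM37), the most abundant of the 40 genes under RDF and second to Cdk4 under DMSO, measured 193 and 214 FPKM under DMSO and 260 and 288 FPKM under RDF. Both RDF values were above both DMSO values, and Ccnd3 rose by 0.43 ± 0.08 on the log2 scale (limma, adjusted p = 0.0163). Ccnd2 (chr6:127075797-127101066) measured 5.11 and 5.43 FPKM under DMSO and 3.63 and 3.57 FPKM under RDF. It was lower in both RDF samples, with a log2 fold change of -0.45 ± 0.09 (adjusted p = 0.0184). Ccnd1, with 20.6 and 22.6 FPKM against 18.8 and 19.7 FPKM, was likewise lower in both RDF samples but did not pass (log2 fold change -0.16 ± 0.07, adjusted p = 0.163).

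The family was thus carried by Ccnd3, which made up 88.3% and 88.5% of the summed FPKM of the 3 D-type cyclins under DMSO, and 92% and 92.5% under RDF. The sum itself was 219 and 242 FPKM under DMSO and 282 and 312 FPKM under RDF. Per sample, there was 37.8 and 39.5 times as much Ccnd3 as Ccnd2 in the DMSO samples, and 71.5 and 80.8 times as much in the RDF samples. Exons of Ccnd3 share 353 of 2255 bases with Bysl on the opposite strand. Bysl did not pass (log2 fold change 0.10, adjusted p = 0.24), and whether the authors counted by strand is not given in the sources used here.

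Of the kinases that the D-type cyclins bind, Cdk4 stood far above Cdk6. Cdk4 was at 214 and 220 FPKM under DMSO and at 229 and 222 FPKM under RDF, a log2 fold change of 0.06 ± 0.05 that did not pass (adjusted p = 0.486, 95% interval -0.07 to 0.19). Cdk6 (chr5:3343893-3523218) was at 9.12 and 8.33 FPKM under DMSO and fell to 6.79 and 6.49 FPKM under RDF, a log2 fold change of -0.35 ± 0.08 (limma, adjusted p = 0.0326). The less abundant member of the pair was the one called. Cdk4 exceeded Cdk6 by 23.5 and 26.4 times in the DMSO samples and by 33.7 and 34.3 times in the RDF samples.

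The E-type cyclins, which drive Cdk2 at the start of S phase, showed the same arrangement. Ccne1 measured 73.2 and 71.8 FPKM under DMSO and 71.6 and 70.9 FPKM under RDF and did not pass (log2 fold change -0.03 ± 0.05, adjusted p = 0.744, 95% interval -0.15 to 0.10). Ccne2 (chr4:11118498-11131926) measured 5.65 and 5.4 FPKM under DMSO and 4.13 and 4.04 FPKM under RDF. Its log2 fold change was -0.36 ± 0.08 (adjusted p = 0.032). Because Ccne2 made up only 7.16% and 7% of the family's FPKM under DMSO, the sum of both genes moved little, from 78.9 and 77.2 FPKM to 75.7 and 74.9 FPKM. Ccne2 shares 609 of its 3495 exonic bases with Ints8 on the opposite strand, which did not pass (log2 fold change 0.05, adjusted p = 0.677). Their kinase Cdk2 did not pass either, with values between 35.5 and 38.1 FPKM and overlapping groups (log2 fold change -0.01, adjusted p = 0.932, 95% interval -0.16 to 0.14).

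Ccna2, the A-type cyclin of dividing cells, measured 117 and 113 FPKM under DMSO and 104 FPKM in both RDF samples. The groups were separate, but the difference did not pass (log2 fold change -0.14 ± 0.05, adjusted p = 0.0999). Ccna1, an A-type cyclin best known from male germ cells, was near the limit of detection. It was listed at 0.0646 and 0.0546 FPKM under DMSO and at 0.419 and 0.281 FPKM under RDF, which corresponds to about 1 fragment in each DMSO library and about 8 and 5 in the RDF libraries. Per fragment sequenced, that is a ratio of 5.76 with an exact 95% interval of 1.3 to 52.6, which covers counting error only. Ccna1 was below the filter. The limma fit without a filter gave it an adjusted p of 0.0512, and that with the filter at 0.1 FPKM gave 0.0671. Ccnf, the cyclin that gave the F-box its name, lay between 45.4 and 49 FPKM in all samples and did not pass (adjusted p = 0.378).

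Ccng2, an atypical cyclin linked to cell cycle arrest, rose. It measured 20.9 and 22 FPKM under DMSO and 29.5 and 28.3 FPKM under RDF, a log2 fold change of 0.41 ± 0.06 (limma, adjusted p = 0.00878).

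Ccnh, Cdk7, Cdk8 and Cdk9 belong to kinases that phosphorylate RNA polymerase II, and Cdk7 with Ccnh also activates the cell cycle CDKs. Ccnh (chr13:85329013-85363074) measured 28.8 and 28.6 FPKM under DMSO and 22.7 and 23.7 FPKM under RDF. Its fall, -0.30 ± 0.06 on the log2 scale (adjusted p = 0.0187), was the only one called in this family. Cdk7 was at 5.13 and 4.95 FPKM against 5.32 and 5.65 FPKM (log2 fold change 0.10, adjusted p = 0.415).

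The third subunit of that complex, Mnat1, fell together with Ccnh, from 35.7 and 34 FPKM to 28.6 and 26.5 FPKM (log2 fold change -0.33 ± 0.07, adjusted p = 0.0188). In the kinase module of Mediator, the co-activator that links enhancers to RNA polymerase II, the cyclin Ccnc fell (-0.27 ± 0.06, adjusted p = 0.0336) and Cdk8 did not pass (-0.03 ± 0.06, adjusted p = 0.75). Its relative Cdk19, which can take the place of Cdk8, rose from 3.49 and 3.55 FPKM to 5.84 and 6.13 FPKM (0.63 ± 0.08, adjusted p = 0.00654). Cdk9, the kinase that releases paused polymerase, was at 34.2 and 34.9 FPKM under DMSO and at 30.5 and 31.6 FPKM under RDF (-0.15 ± 0.06, adjusted p = 0.11). Of its cyclin partners, which were named after their values were seen, Ccnt2 rose (0.48 ± 0.07, adjusted p = 0.00782) and Ccnt1 did not pass (0.46 ± 0.14, adjusted p = 0.0665). Cdk5, a kinase known mainly from neurons, measured between 11.4 and 12.8 FPKM and did not pass (adjusted p = 0.574).

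Among the 6 genes grouped as CDK inhibitors, 1 was called. Cdkn1b, which encodes p27, an inhibitor of cyclin E and cyclin A kinases, measured 19.5 and 19.8 FPKM under DMSO and 23.2 and 23.6 FPKM under RDF. It rose by 0.24 ± 0.06 on the log2 scale (limma, adjusted p = 0.0344), the smallest change among the 10 genes called, and without the mean-variance trend its adjusted p was 0.0612. Cdkn3, a phosphatase that acts on CDKs, was lower in both RDF samples, at 7.8 and 7.95 FPKM against 6.56 and 6.14 FPKM, and did not pass (log2 fold change -0.27 ± 0.08, adjusted p = 0.0572).

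The INK4 inhibitors, which block Cdk4 and Cdk6, did not pass, and most of their signal came from Cdkn2a. Its values were 59.7 and 62 FPKM under DMSO and 63.1 and 62.9 FPKM under RDF (log2 fold change 0.05 ± 0.05, adjusted p = 0.532, 95% interval -0.08 to 0.18). Cdkn2a makes both p16 and, from another first exon and reading frame, p19Arf, and the 1 value per gene does not separate them. Cdkn2c, the lowest of the inhibitors, was at 0.858 and 1.46 FPKM under DMSO and at 1.18 and 1.11 FPKM under RDF, and Cdkn2b and Cdkn2d were between 1.7 and 2.71 FPKM. The groups overlapped for these 3 genes, and their adjusted p-values ran from 0.565 to 0.986. Of the Cip/Kip inhibitors outside the 40 genes, Cdkn1a (p21), named after its values were seen, did not pass (log2 fold change 0.03 ± 0.10, adjusted p = 0.855), and Cdkn1c (p57), an imprinted gene, fell from 12.7 and 11.8 FPKM to 8.2 and 8.48 FPKM (-0.51 ± 0.08, adjusted p = 0.00843).

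**Figure D3:**
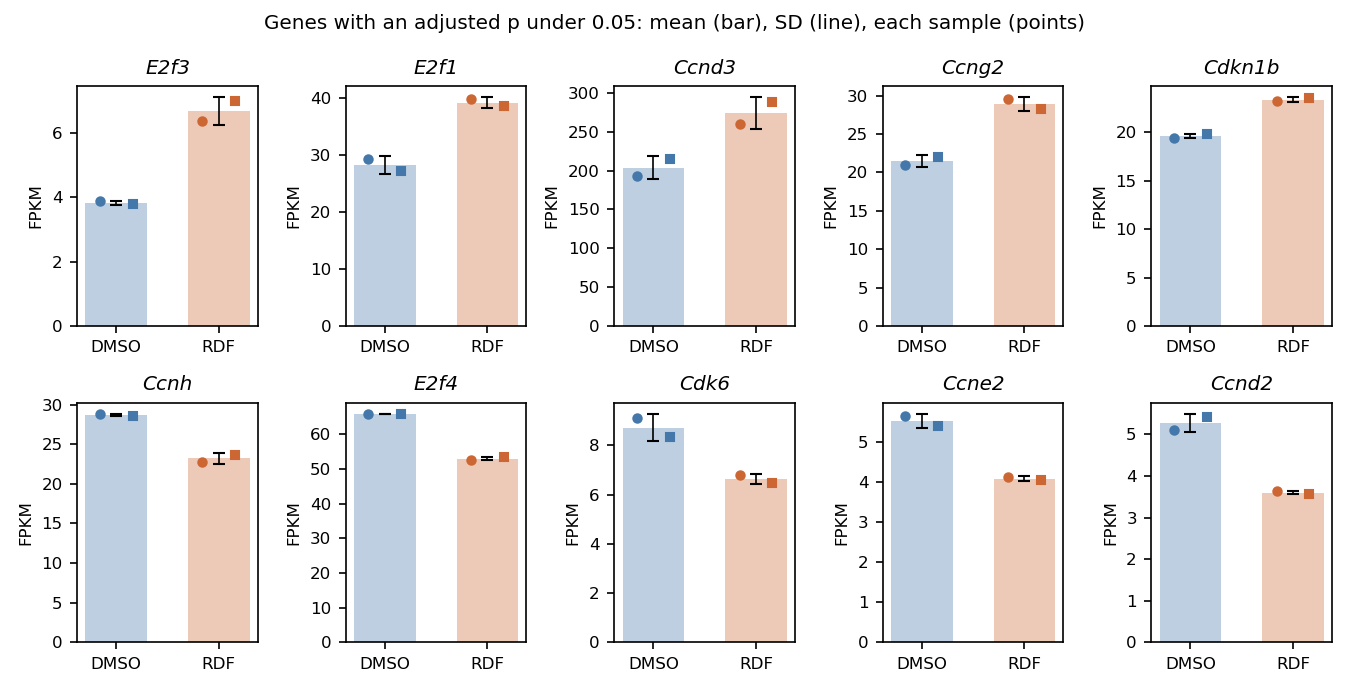
The 10 genes with an adjusted p under 0.05, ordered by log2 fold change; bars give the mean FPKM of a group, lines its SD (n = 2), and circles and squares replicates 1 and 2. In each panel the RDF values do not overlap the DMSO values, with E2f3 rising from a mean of 3.82 to 6.67 FPKM and E2f4 falling from 65.8 to 53 FPKM.

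The E2F family held the largest rises. E2f3 (chr13:29998444-30077537), an activator of S-phase genes, measured 3.87 and 3.77 FPKM under DMSO and 6.37 and 6.97 FPKM under RDF. The RDF samples were clearly higher, with a log2 fold change of 0.67 ± 0.09 (limma, adjusted p = 0.00603), and the mean FPKM was 1.75 times that under DMSO. E2f1 (chr2:154385143-154395628), the activator best known as a target of Rb, measured 29.3 and 27.1 FPKM under DMSO and 39.8 and 38.5 FPKM under RDF. Its log2 fold change was 0.46 ± 0.06 (adjusted p = 0.00684). E2f2, the remaining activator, was under the filter, at 0.639 and 0.732 FPKM against 0.894 and 0.831 FPKM. With the filter lowered to a mean of 0.1 FPKM its limma adjusted p was 0.362, and without a filter 0.312.

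On the side of the E2Fs that mainly repress, E2f4 fell. E2f4 (chr8:107821563-107829269), the main partner of p107 and p130 in resting cells, was at 65.8 and 65.9 FPKM under DMSO and at 52.6 and 53.4 FPKM under RDF. The log2 fold change was -0.31 ± 0.05 (limma, adjusted p = 0.0112). E2f5, its closest relative, had higher values in both RDF samples, 24.6 and 18.4 FPKM against 16.1 and 14.2 FPKM, but RDF replicate 1 stood well above replicate 2 and the difference did not pass (0.46 ± 0.14, adjusted p = 0.0616).

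E2f6, a repressor that works without Rb, did not pass, with 11.8 and 11.6 FPKM against 12.8 and 12.4 FPKM (log2 fold change 0.10, adjusted p = 0.326). The atypical repressors E2f7 and E2f8, which counter E2f1, did not pass either. E2f7 was low, at 1.49 FPKM in both DMSO samples and at 0.974 and 1.14 FPKM under RDF (-0.28 ± 0.11, adjusted p = 0.131). E2f8 overlapped between groups, at 5.42 and 6.39 FPKM against 6.27 and 7.61 FPKM (0.20 ± 0.12, adjusted p = 0.269).

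Opposite moves of E2f1 and E2f3 against E2f4 changed the balance of their transcripts. The summed FPKM of E2f1, E2f2 and E2f3 was 33.9 and 31.6 under DMSO and 47.1 and 46.3 under RDF, and that of E2f4, E2f5 and E2f6 was 93.8 and 91.7 under DMSO and 90.1 and 84.1 under RDF. The ratio of E2f1 to E2f4 was 0.446 and 0.412 in the DMSO samples and 0.757 and 0.722 in the RDF samples. For E2f3 to E2f4 it was 0.0588 and 0.0573 under DMSO and 0.121 and 0.131 under RDF. These pairs, like the others whose ratios are given, were chosen after their values were seen, so the ratios are a description of each sample.

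The Dp proteins bind E2Fs and allow them to bind DNA, and neither gene passed. Tfdp1 was the more abundant, with 56.5 and 54.7 FPKM under DMSO and 52.3 and 50.3 FPKM under RDF (log2 fold change -0.11 ± 0.05, adjusted p = 0.187). Tfdp2 measured 9.15 and 8.67 FPKM under DMSO and 10.5 and 10.7 FPKM under RDF (0.23 ± 0.07, adjusted p = 0.068). In the Rb family, Rbl1 (p107) made up between 81.2% and 85.9% of the summed FPKM in each sample.

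All 3 Rb family genes had higher values in both RDF samples than in either DMSO sample. Such a separation, in either direction, was seen in 65.5% of all genes tested. None of the 3 was called in any fit that used all 4 libraries. Rbl1 measured 9.02 and 9.85 FPKM under DMSO and 11.3 and 11 FPKM under RDF (log2 fold change 0.22 ± 0.08, adjusted p = 0.0884). Rb1 itself was low, at 1.24 and 1.15 FPKM against 1.36 and 1.68 FPKM (0.20 ± 0.12, adjusted p = 0.278). Taken over its longest annotated transcript, of 4656 bases, that is approximately 55 and 60 fragments against 78 and 86. Rb1 has 6 annotated transcripts, so these fragment numbers are rough. Rbl2 (p130), under the filter, was at 0.526 and 0.472 FPKM under DMSO and at 1.15 and 0.861 FPKM under RDF. Its limma adjusted p was 0.0598 with the filter at 0.1 FPKM and 0.0763 without a filter.

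The 4 adaptors did not pass. Skp2, which targets p27 for degradation, was between 12.5 and 14.3 FPKM with overlapping groups (log2 fold change -0.09 ± 0.08, adjusted p = 0.449). Fbxw7, which targets cyclin E, was at 1.14 and 1.13 FPKM under DMSO and at 1.66 and 1.64 FPKM under RDF (0.32 ± 0.11, adjusted p = 0.0851). The small Cks proteins bind CDKs and help them reach their substrates, and they were among the most abundant of the 40 genes: Cks1b measured 186 and 173 FPKM against 166 and 161 FPKM (-0.14 ± 0.06, adjusted p = 0.142). Cks2 measured 188 and 193 FPKM against 215 and 210 FPKM (0.16 ± 0.05, adjusted p = 0.0808). Each sample held more Cks2 than Cks1b, by 1.01 and 1.11 times under DMSO and by 1.3 and 1.31 times under RDF.

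**Figure D4:**
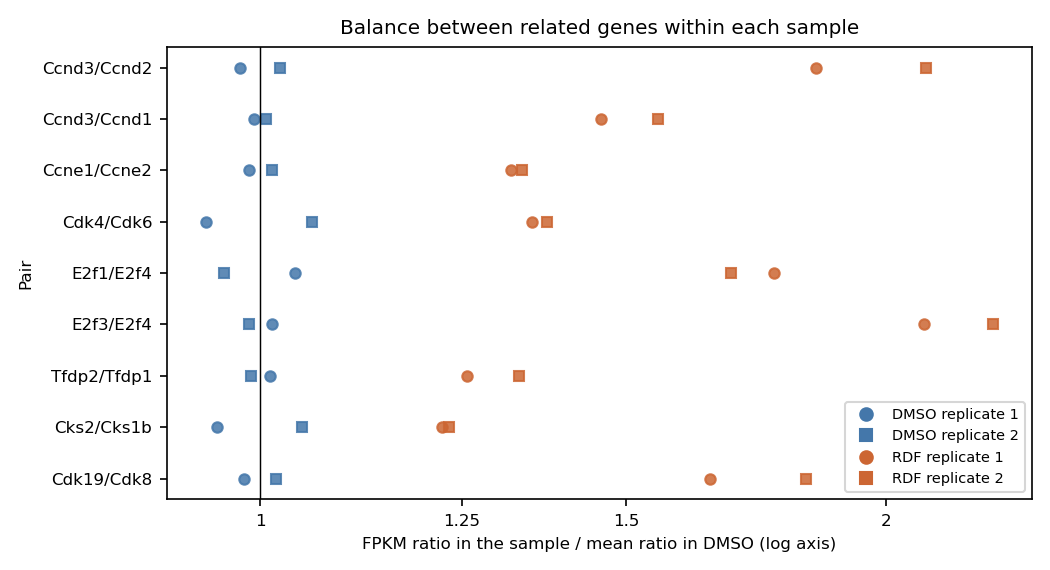
Ratio of FPKM between related genes within each sample, divided by the mean ratio of the 2 DMSO samples, on a log axis; circles and squares are replicates 1 and 2, and the vertical line marks the DMSO mean. In all 9 pairs both RDF samples lie to the right of both DMSO samples, by 1.23 times in the mean for Cks2 to Cks1b and 2.17 times for E2f3 to E2f4. The pairs were chosen after their values were seen. The gene with the higher log2 fold change is the numerator in each, so the side was set by that choice.

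Promoter sequence was examined for the E2F genes and their partners, since some genes of the system are known E2F targets themselves. The RefSeq promoter table (build GRCm38.p6, 250 bases before to 50 after each start, and so not the build of the gene positions above) held 31 of the 40 genes, with 41 starts. It had no entry for Ccnd1, Ccnd2, Ccne2, Ccna2, Ccnh, Cdk5, E2f4, E2f5 and Rb1. The E2F words searched, on both strands, were TTTCCCGC, TTTGGCGC, TTTCGCGC and TTTGCCGC. They occur in 7 of the 31 genes (Rbl1, Cdkn2a, E2f2, Tfdp1, E2f7, Cdk2 and E2f3) and in 2.6% of the 27025 symbols of the table. Only 6 of the 10 genes called are in the table, and of these E2f3 holds a match. The stretches before the start follow for E2f3, the gene with the largest rise, and for the Rb relative Rbl1, the Dp gene Tfdp1, and Cdk2, none of which was called, with the matched word in capitals.
E2f3 (minus strand, chr13:29986064-29986114, bases -51 to -1 from the start): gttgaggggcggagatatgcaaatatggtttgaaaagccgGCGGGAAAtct
Rbl1 (minus strand, chr2:157204535-157204592, bases -58 to -1): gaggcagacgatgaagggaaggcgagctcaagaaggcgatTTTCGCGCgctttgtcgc
Tfdp1 (plus strand, chr8:13338668-13338750, bases -83 to -1): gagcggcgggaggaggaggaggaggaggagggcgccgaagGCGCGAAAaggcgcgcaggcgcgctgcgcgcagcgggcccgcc
Cdk2 (minus strand, chr10:128705144-128705231, bases -180 to -93): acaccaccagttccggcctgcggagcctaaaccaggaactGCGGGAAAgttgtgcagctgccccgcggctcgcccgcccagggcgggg

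The match of E2f3 begins 11 bases before its start, and GCGGGAAA there is TTTCCCGC read on the other strand. Rbl1 carries its match 18 bases before the start. A match is a description of these letters and not a bound site. Forskolin raises cAMP, so the cAMP response element TGACGTCA was searched as well, and it was found in 1 of the 31 genes, Cdkn2b, and in 2.03% of symbols. Cdkn2b was at 1.7 and 2.44 FPKM under DMSO and at 1.99 and 2.45 FPKM under RDF, with overlapping groups (log2 fold change 0.08 ± 0.15, adjusted p = 0.745).
Cdkn2b (minus strand, chr4:89311033-89311118, bases -86 to -1): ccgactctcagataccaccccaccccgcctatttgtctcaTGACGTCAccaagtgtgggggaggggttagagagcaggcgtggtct
The cell cycle homology elements TTTGAA and TTCGAA, which the MuvB complex binds in genes of late cell cycle phases, were found in 9 of the 31 genes (29%) and in 21.7% of symbols.

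Wider lists of the same pathway were read from the same fit. All of them were chosen with earlier results of these data known, so their shares are descriptions. Of 25 G1/S genes known as E2F targets, all tested, 5 rose and 0 fell (20% called, beside 21.6% of all genes tested). Over all genes tested, 13.3% rose and 8.28% fell. Orc1, a subunit of the origin recognition complex, rose from 9.85 and 8.99 FPKM to 12.1 and 12.8 FPKM (log2 fold change 0.37 ± 0.08, adjusted p = 0.0234), Ung, which removes uracil from DNA, by 0.29 ± 0.08 (adjusted p = 0.0467), and Cdt1, the licensing factor, by 0.22 ± 0.05 (adjusted p = 0.0372). The 6 Mcm genes of the replicative helicase, named after their values were seen, did not pass, with log2 fold changes between -0.07 and 0.08. In each fit without 1 library fewer of the 25 rose, and without either RDF replicate no rise was kept. Fewer genes were also called in those fits over all genes tested.

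Of the 23 other cyclins, CDKs, CDK partners and inhibitors tested (of 25), 7 rose and 3 fell, which is 43.5% called beside 21.6% of all genes tested. The list was chosen with earlier results of these data known, and its share is a description. The largest rises were those of Ccnl1, a cyclin of splicing factors, from 25.1 and 24.4 FPKM to 50.5 and 44.5 FPKM (log2 fold change 0.91 ± 0.07, adjusted p = 0.00164), Cdk19, and Ccnj (0.52 ± 0.10, adjusted p = 0.0182). The falls were those of Cdkn1c, Mnat1 and Ccnc, given above. In each fit without 1 library fewer of the 23 rose and fewer fell than with all 4 libraries. Without either RDF replicate no fall was kept.

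MuvB is the complex that joins p107, p130 and E2f4 to repress cell cycle genes, and B-Myb to activate them. Of its 8 genes and partners, 3 were called (37.5%, beside 21.6% of all genes tested). Lin52 rose from 7.11 and 5.91 FPKM to 13.8 and 13.3 FPKM (log2 fold change 0.95 ± 0.10, adjusted p = 0.00301), while Lin37 (-0.35 ± 0.07, adjusted p = 0.0186) and Mybl2, which encodes B-Myb (-0.23 ± 0.05, adjusted p = 0.0283), fell. In each of the 4 fits without 1 library Lin52 was called, with adjusted p-values from 0.00186 to 0.0434, and Lin37 and Mybl2 were not. Among 10 subunits and adaptors of the SCF and APC/C ubiquitin ligases, 3 rose and 0 fell (30% called, beside 21.6%). They were Cdc27 (0.41 ± 0.08, adjusted p = 0.0212), Fzr1, the Cdh1 adaptor that keeps APC/C active in G1 (0.31 ± 0.06, adjusted p = 0.0174), and Skp1a (0.22 ± 0.06, adjusted p = 0.0451). Without DMSO replicate 1, 2 of the 10 rose, and in the 3 other fits 0 rose, while without DMSO replicate 2 Cdc20, the mitotic adaptor of APC/C, fell (-0.36, adjusted p = 0.0463).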

How the data were processed

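Poly(A) RNA libraries of 2 DMSO-treated and 2 RDF-treated samples were made with a stranded kit and sequenced by the authors, who deposited 1 FPKM value per gene symbol and sample. Per the labels, TopHat2 2.0.14, Bowtie2 2.1.0 and Cufflinks 2.2.1 were used on mm9, with the UCSC annotation as the study states. Strand setting and treatment of reads that map to several genes are not given in the sources used here, so Ccnd3, which has a pseudogene copy, may share reads.

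FPKM were used as deposited. Genes averaging 1 FPKM or more across all 4 libraries were compared on log2(FPKM + 1) in limma 3.58.1 in R 4.3.3 (lmFit, eBayes with a mean-variance trend, two-sided, Benjamini-Hochberg over all 11733 genes), RDF against DMSO. An exact permutation test of 2 against 2 cannot go below 0.333 and was not used. SDs are over 2 samples. Depth was estimated from single-transcript genes of at least 1500 bases, where about 40% to 41% of low values lay within 0.1 of a whole fragment (20% if spread evenly), so fragment numbers are approximate. Positions are from the GENCODE annotation of NCBIM37.

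Every one of the 40 genes was named, with all sample values for those called, those under the filter and the highest and lowest of a family, and up to 3 called genes a direction from each wider list. The genes and lists were chosen with earlier results of these data known. Alternatives were other filters, a pseudocount of 0.1, median-ratio scaling, no trend, a replicate block and leaving out each sample.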

Additional observations from a re-analysis of the deposited data

How the results depend on the processing

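With a mean of at least 0.1 FPKM or a pseudocount of 0.1, the same 10 genes were called. Testing all genes above 0 gave 942 genes up and 606 down over the whole data, against 1561 and 972, and 3 and 2 of the 40, the calls of Ccnd2, Ccnd3, Ccne2, Cdk6 and Cdkn1b having adjusted p-values from 0.0506 to 0.0738. Median-ratio scaling called 5 up and 6 down, Cdkn3 being added (adjusted p = 0.044), and turned the log2 fold change of Cdkn2c to -0.013. Without the mean-variance trend Fbxw7 was called (adjusted p = 0.0324) and Cdkn1b was not. Leaving out 1 library gave 253 to 1121 genes up and 195 to 731 down, and 0 to 4 of the 40 up and 0 to 2 down. In those fits log2 fold changes near 0 changed sign, with ranges of -0.057 to 0.040 for Cdk2, -0.070 to 0.0095 for Cdk8, -0.10 to 0.25 for Cdkn2b and -0.20 to 0.21 for Cdkn2c. The median of the genes tested stayed between 0.02 and 0.07. The labels number the replicates but do not say what a number shares. With the replicate block, 6 of the 40 rose and 5 fell, E2f5 being added (adjusted p = 0.0158), and 1651 and 1066 genes were called up and down over all; the deviations from the group means of samples with the same number had, over all genes tested, Pearson's r = 0.134 and Spearman's rho = 0.114. The cause of these shifts was not tested. The depth was approximately 9500000 to 12240000 fragments a library, and Ccna1, E2f2 and Rbl2, whose means lie under 1 FPKM, were tested only with the lower filters, where none was called.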
